A study of Mus musculus with 6 samples.

Results

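The stylopod is the proximal segment of the limb, which will form the thigh of the hindlimb. Its mesenchyme was described here from the cell classes that the authors deposited: every cell with the class name "Stylopod mesenchyme" in the C57BL/6 wild-type and Dup hindlimb libraries was taken. The class held 1475 of the 6944 cells in those 2 libraries, 688 from wild type and 787 from Dup, and the whole series held 26486 cells. With over 2000 detected genes per cell, 1464 cells remained, 688 and 776. Zeugopod mesenchyme (638 and 1348 cells), which will form the lower leg, and autopod mesenchyme (326 and 1468 cells), which will form the foot, served as the comparison.

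Both libraries came from hindlimb buds at E11.5. The wild-type embryos were C57BL/6J. Dup embryos, labelled with the same strain, carried on both chromosomes a tandem duplication of the region with Lbx1, Btrc, Fbxw4, Dpcd and Poll. The methods describe mouse lines founded by edited G4 embryonic stem cells, which are 129/C57BL/6 hybrids, and crossed with C57BL/6 animals, so genotype and residual strain background cannot be told apart. A hindlimb library of G4 wild-type embryos of the same stage was used once, at the end. Each group was 1 library, and the sources used here do not give how many embryos entered it. No test between genotypes was therefore possible. Levels are UMIs summed over the cells of a class and scaled to the same total in every class (CPM), and the 95% intervals cover counting error only, since cells and UMIs of 1 library do not show how embryos vary.

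A limb bud is patterned from the body wall outwards. Proximal cells express the TALE homeodomain factors Meis1 and Meis2, which retinoic acid from the flank promotes and FGFs from the apical ridge restrain, and their partners of the Pbx family. As the bud extends, later and more distal cells switch on the posterior members of the Hox clusters, first groups 9 and 10, then 11, and last 12 and 13, which mark the future foot. Irx3 and Irx5 act in early proximal and anterior progenitors, and Shox2 is needed for the proximal bones.

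Stylopod cells gave 6269325 UMIs in wild type and 5059318 in Dup. Dup cells were shallower, with a median of 6069 against 8044 UMIs and 2422 against 2874.5 detected genes per cell. Only wild type held stylopod cells over 20000 UMIs, 24 of them. The libraries shared 9 cell barcodes. They lay on 2 stylopod cells and carried the class in both libraries in 0 cases.

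The class name was checked first against Meis1, Meis2 and Irx3. Meis2 was at 455 CPM in wild-type and 284 CPM in Dup stylopod cells, against 73.9 and 28.3 in zeugopod and 19.2 and 5.02 in autopod cells. Meis1 was at 131 and 69.6 CPM, then 18.8 and 7.31 in zeugopod, and 3.90 and 1.59 in autopod cells. Irx3 was at 120.0 and 73.7 CPM, then 12.6 and 4.66, and 10.8 and 1.09. The order of stylopod, zeugopod and autopod was the same in both libraries for each of these genes, although the zeugopod and autopod intervals of Irx3 overlapped in wild type, so the data bore the label out. Against autopod cells, Meis2 was 23.7-fold higher in wild type and 56.6-fold in Dup, Meis1 33.6-fold and 43.8-fold, and Irx3 11.1-fold and 67.8-fold. The classes were made by clustering these same cells, so these ratios describe the class and are no test. In the mm9 assembly Meis1 lies on the reverse strand at chr11:18780433-18918961, Meis2 on the reverse strand at chr2:115688800-115891575 and Irx3 on the reverse strand at chr8:94322428-94325553.

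**Figure D1:**
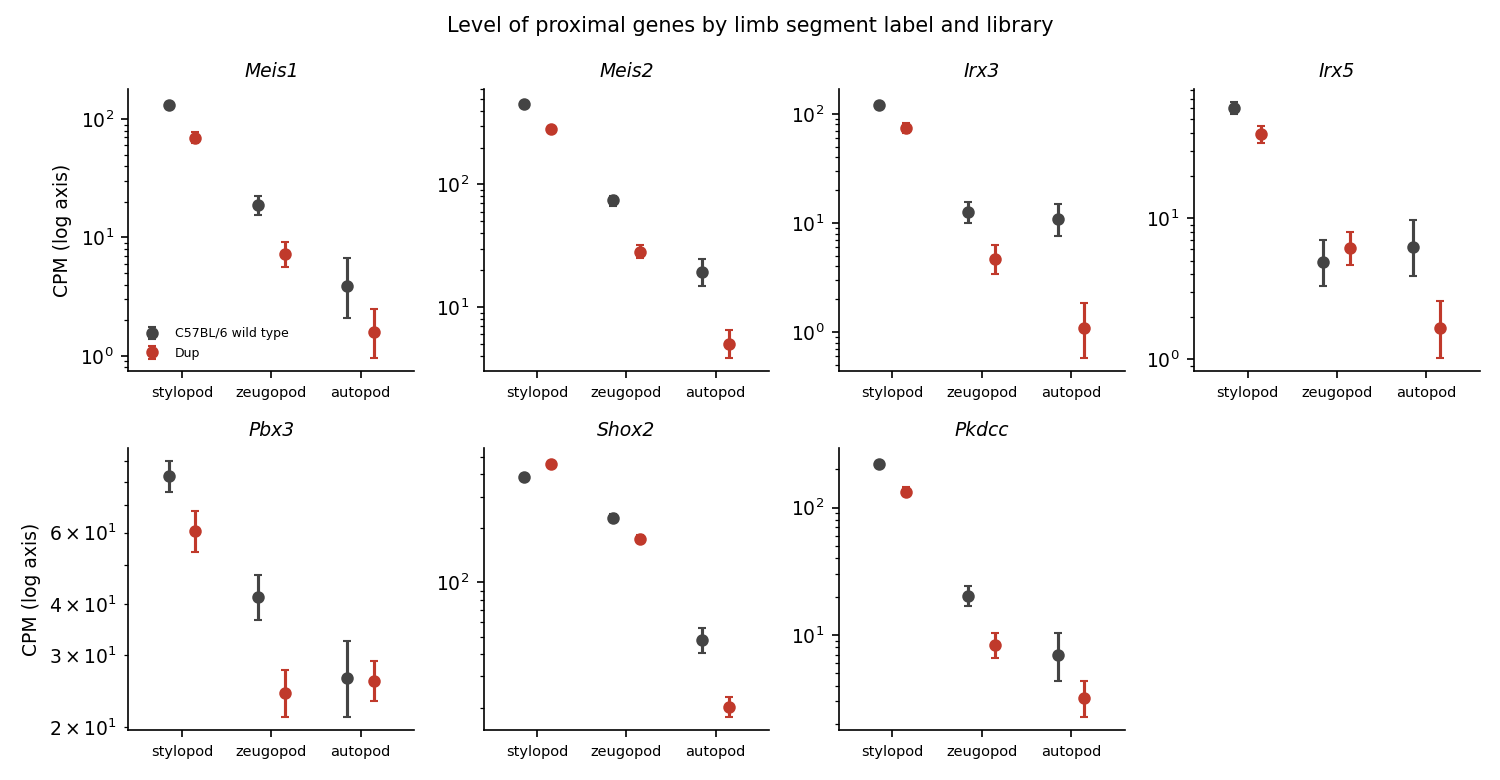
CPM on a log axis of proximal genes in stylopod, zeugopod and autopod mesenchyme of the C57BL/6 wild-type (grey) and Dup (red) hindlimb, 1 library each, with 95% Poisson intervals. Meis1, Meis2, Irx3, Irx5, Pbx3 and Pkdcc lie lower in the Dup than in the wild-type stylopod, and Shox2 lies higher, at 453 against 386 CPM.

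Single cells carried the markers unevenly. Each cell was thinned to 4000 UMIs, which left 679 and 773 stylopod cells and left out 9 and 3, so that shares could be compared between depths. A Meis2 UMI was found in 62.4% of wild-type and 42.0% of Dup stylopod cells (72.7% and 50.5% before thinning). In autopod cells, which have little Meis2 and median depths of 9108 and 7569.5 UMIs, the thinned shares were 6.1% and 1.3%. For Meis1 the stylopod shares were 37.6% and 22.1% (52.6% and 31.1% before thinning) and the autopod shares 1.2% and 0.5%. None of the 3 markers had a UMI in 28.6% of wild-type and 45.5% of Dup stylopod cells, whereas all 3 had one in 10.8% and 4.92%. Many cells of the class therefore showed none of its markers at this depth. A UMI of Hoxa13 or Hoxd13 was present in 8.25% and 8.54% of stylopod cells, against 72.7% and 77.5% of autopod cells.

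Of the proximal factors that were not markers, Pbx3, Irx5 and Shox2 were also higher in the stylopod. Counting a gene only where it was at least 1.5-fold apart in the same direction in both libraries, 6 of 7 measured Meis, Pbx, Irx and Shox genes were higher in stylopod than autopod cells, and the same 6 against zeugopod cells; Pbx2 was the exception. The list includes the 3 markers, so its count and median are partly theirs. Over all genes at 10 or more CPM, 8.25% were higher and 3.37% lower than in autopod cells by that count (638 and 261 of 7735), and 2.11% and 1.04% than in zeugopod cells (165 and 81 of 7824). These shares are the background for every later count against autopod or zeugopod cells. The median log2 ratio of the list to autopod cells was 3.22 in wild type and 4.52 in Dup, against 0.04 and 0.09 over all genes. Shox2, at 386 and 453 CPM, was 8.09-fold and 22.4-fold over autopod cells but 1.69-fold and 2.59-fold over zeugopod cells. Irx5, a neighbour and relative of Irx3, was at 60.1 and 39.1 CPM and was 9.55-fold and 23.4-fold over autopod cells.

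Genes outside the fixed lists were named by size, at a mean of 50 or more CPM. Pkdcc, a secreted tyrosine kinase needed for long bone growth, was at 220 and 133 CPM in stylopod, 20.1 and 8.37 CPM in zeugopod and 6.89 and 3.18 CPM in autopod cells. It stood next to Meis1 in its ratio to autopod cells, 31.9-fold in wild type and 42.0-fold in Dup. Fibin, which encodes a secreted fin bud initiation factor homologue, was at 210 and 149 CPM and was 21.9-fold and 27.4-fold higher than in autopod cells. Cxcl12, a chemokine that guides migrating muscle precursors, was at 183 and 149 CPM, 13.9-fold and 32.3-fold over autopod cells. Itm2a (10.1-fold and 11.1-fold), Tshz2 (5.35-fold and 10.6-fold) and the matrix proteoglycan gene Vcan (5.07-fold and 5.64-fold) completed the group by this rule, together with Col3a1, Sfrp2, Peg3, Igfbp5, Igf1 and Col2a1, which belong to lists below. The chemokine and matrix genes were in no list and their function in this class was not tested.

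The Hox genes of groups 12 and 13 were lowest in the stylopod. Hoxd13 was at 15.2 and 21.9 CPM in stylopod, 25.0 and 36.5 in zeugopod and 283 and 285 in autopod cells. Hoxa13 was at 10.1 and 13.2 CPM, then 44.8 and 77.0, then 191 and 169. All 3 measured genes of groups 12 and 13 were lower than in autopod and zeugopod cells in both libraries, and their median log2 ratio to autopod cells was -4.22 in wild type and -3.66 in Dup. The 3 genes of group 11, which marks the zeugopod, split. Hoxa11 was at 54.2 and 51.2 CPM in stylopod and at 177 and 125 CPM in zeugopod cells, a ratio of 0.307 and 0.410. Hoxd11 was at 69.5 and 59.1 CPM, lower than in zeugopod (246 and 147 CPM) and autopod cells (327 and 237 CPM). Hoxc11 had ratios of 2.95 and 5.89 to autopod cells but of 0.673 and 1.01 to zeugopod cells.

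Of the measured Hox genes, Hoxc6, Hoxc8, Hoxc9 and Hoxc10 were higher in the stylopod than in both other segments in both libraries. Hoxc10, a hindlimb gene, was at 187 and 178 CPM in stylopod, 106 and 71.5 in zeugopod and 41.7 and 13.5 in autopod cells. Hoxc9 was at 66.0 and 59.9 CPM, then 34.4 and 19.7, then 18.6 and 8.20. Hoxc6 was at 33.2 and 24.7 CPM in stylopod cells and Hoxc8 at 31.3 and 26.5 CPM. Hoxd9, at 42.0 and 32.4 CPM, was higher than in autopod cells (20.1 and 12.2 CPM) but not than in zeugopod cells (47.6 and 32.2 CPM). Hoxa10, at 255 and 232 CPM, lay below its zeugopod level of 339 and 305, and Hoxd10, at 19.3 and 17.6 CPM, was lower than in both other segments.

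**Figure D2:**
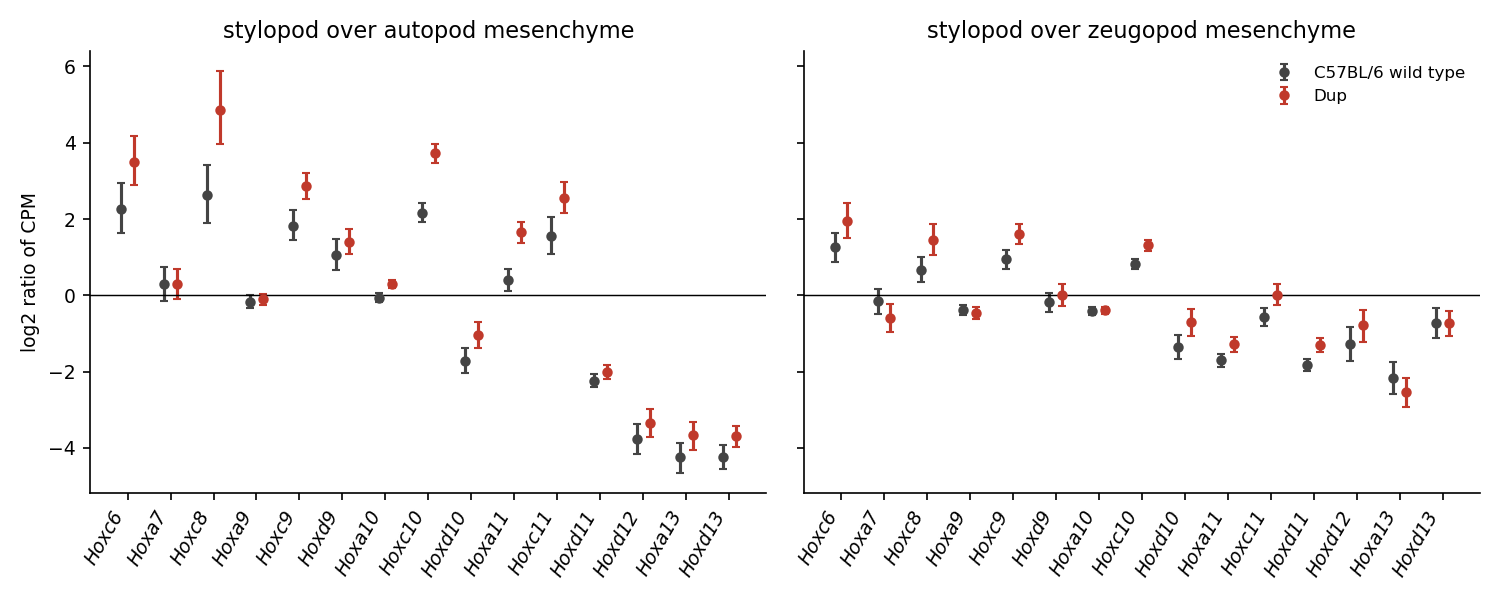
log2 ratio of CPM, stylopod over autopod (left) and over zeugopod (right), for the Hox genes at 10 or more CPM on average over stylopod and autopod cells in both libraries, ordered by group, with 95% intervals for wild type (grey) and Dup (red). Ratios to autopod cells are above 0 for the HoxC genes and reach -4.22 for Hoxd13 in wild type.

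Factors of the distal bud were low. Of 10 measured genes that mark distal mesenchyme, 9 were lower than in autopod cells in both libraries, and 7 of 8 were lower than in zeugopod cells. The shares over all genes were 3.37% lower than in autopod and 1.04% lower than in zeugopod cells. Lhx9, which with Lhx2 relays ridge signals to the mesenchyme, was at 89.0 and 96.5 CPM against 216 and 199 in autopod cells. Msx1, a BMP-responsive homeobox gene, was at 53.7 and 45.1 CPM against 187 and 185 CPM in autopod cells. Wnt5a, which steers distal outgrowth, was at 70.5 and 66.2 CPM against 219 and 174 CPM. The Notch ligand gene Jag1 was at 6.38 and 6.32 CPM against 86.6 and 61.1 CPM. Tfap2b was at 3.19 and 2.37 CPM against 88.7 and 61.9 CPM, although it did not differ past 1.5-fold from zeugopod cells in wild type. Dlx5 went the other way, at 34.8 and 47.6 CPM against 5.10 and 3.85 CPM in autopod cells.

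The retinoic acid enzyme genes Aldh1a2 and Cyp26b1, of opposite role, went opposite ways. Aldh1a2, which makes retinoic acid, was at 28.9 and 33.2 CPM in stylopod, 2.94 and 3.18 in zeugopod and 9.89 and 13.4 in autopod cells. Cyp26b1, which degrades it, was at 33.5 and 26.1 CPM against 113 and 83.1 CPM in zeugopod and 129 and 93.7 CPM in autopod cells. The synthetic enzyme was thus highest and the degrading enzyme lowest in the stylopod in both libraries. In all, 3 of 8 measured genes of the pathway were higher (Aldh1a2, Stra6 and Crabp2) and 1 lower than in autopod cells in both libraries. Against zeugopod cells 1 of 9 was higher (Aldh1a2) and 3 lower (Dhrs3, Crabp1 and Cyp26b1). All genes gave shares of 8.25% higher and 3.37% lower against autopod cells, and of 2.11% and 1.04% against zeugopod cells.

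Several genes of the posterior Shh response were lower than in autopod cells. The Shh receptor gene Ptch1 was at 23.8 and 20.0 CPM against 70.7 and 52.6 CPM in autopod cells. Grem1, a BMP antagonist that links Shh to the ridge, was at 3.99 and 2.97 CPM against 50.9 and 31.4 CPM. Hand2, a posterior factor, was at 77.2 and 56.7 CPM against 168 and 157 CPM. These and Gli1 made 4 of 7 measured anteroposterior genes lower in both libraries, and Tbx3 was the 1 higher. Against zeugopod cells 3 of 7 were lower (Ptch1, Hand2 and Pax9) and 0 higher. The shares over all genes were 8.25% higher and 3.37% lower against autopod cells, and 2.11% and 1.04% against zeugopod cells.

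Other signalling genes were mostly low or level against autopod cells, with Fgfr1, Fgfr2, Sfrp1 and Sfrp2 as the exceptions. Of the BMP genes, 5 of 8 measured were lower than in autopod cells and 0 higher, and 1 of 7 was lower than in zeugopod cells. All genes gave shares of 8.25% higher and 3.37% lower against autopod cells, and of 2.11% and 1.04% against zeugopod cells. Of the FGF genes, Fgf10, the mesenchymal signal to the ridge, and its feedback genes Spry1, Spry2 and Etv4 were lower, while the receptors Fgfr1 (103 and 99.4 CPM) and Fgfr2 (22.5 and 26.9 CPM) were higher. Of 8 measured Wnt genes, Axin2, Lef1 and Wnt5a were lower and the secreted Wnt antagonists Sfrp1 and Sfrp2 were higher. Sfrp1 was at 154 and 118 CPM against 10.8 and 7.87 CPM in autopod cells, and Sfrp2 at 331 and 384 CPM against 64.1 and 72.9 CPM. Both were also higher than in zeugopod cells, whereas the antagonist gene Wif1, at 18.5 and 27.1 CPM, was lower than in zeugopod cells (39.1 and 51.4 CPM).

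Connective tissue and cartilage genes were more abundant in the stylopod. Of 13 measured connective tissue genes, 10 were higher than in autopod cells in both libraries and 0 lower, but against zeugopod cells 5 of 14 were higher and 2 lower. The shares over all genes were 8.25% higher and 3.37% lower against autopod cells, and 2.11% and 1.04% against zeugopod cells. Tbx18 was at 156 and 149 CPM in stylopod, 47.3 and 28.4 in zeugopod and 21.3 and 22.9 in autopod cells. Nr2f1, an orphan nuclear receptor gene, was at 62.8 and 39.3 CPM, 14.98-fold and 11.8-fold over autopod cells. Ebf1 was an exception, at 290 and 419 CPM against 858 and 896 in zeugopod cells. Of 9 measured cartilage genes, 7 were higher than in autopod cells and 5 than in zeugopod cells. Sox9, which commits cells to cartilage, was at 378 and 294 CPM against 206 and 147 in zeugopod and 95.6 and 69.7 in autopod cells. Its target Col2a1 was at 180 and 141 CPM, 10.7-fold and 9.49-fold over autopod cells, although chondrocyte progenitors of the stylopod were a class of their own in the deposited names.

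Growth regulators were higher than in autopod cells, and some cell cycle genes lower, but few of either differed from zeugopod cells. Of 8 measured genes of the insulin-like growth factor system, 7 were higher than in autopod cells in both libraries and 1, Igfbp5, than in zeugopod cells. All genes gave shares of 8.25% higher and 3.37% lower against autopod cells, and of 2.11% and 1.04% against zeugopod cells. Igf1 was at 134 and 125 CPM in stylopod, 106 and 45.4 in zeugopod and 11.7 and 3.01 in autopod cells. Igfbp5, which binds it, was at 117 and 138 CPM against 3.00 and 4.02 CPM in autopod cells. Imprinted genes, several of which restrain or promote embryonic growth, were higher than in autopod cells for 12 of 13 measured members and than in zeugopod cells for 3 (Peg10, Plagl1 and Cdkn1c). They include Igf2 and Igf2r of the former list. Cdkn1c, an inhibitor of cyclin-dependent kinases, was at 1586 and 1583 CPM in stylopod, 934 and 936 in zeugopod and 635 and 567 in autopod cells. Of 10 genes of the G2 and M phases, 4 were lower than in autopod cells in both libraries (Ccnb1, Ccna2, Cdk1 and Aurkb) and 0 higher, and 0 differed from zeugopod cells in either direction. Cdk1 was at 195 and 191 CPM against 295 and 314 CPM.

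Hindlimb identity genes were present in the class. Isl1, which starts the hindlimb field, was at 46.9 and 44.3 CPM in stylopod, 16.4 and 21.1 in zeugopod and 7.79 and 3.35 in autopod cells. Tbx4 was flatter, at 53.3 and 51.0 CPM in stylopod and 38.7 and 26.2 in autopod cells.

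The authors' clusters divided the stylopod class into 4, given here only as its make-up, since their leading genes also defined them. Cluster 5 held 268 wild-type and 186 Dup cells (39.0% and 24.0%) and was led by Irx3, Ptn, Meis2 and Nr2f1. Cluster 4 held 211 and 291 cells (30.7% and 37.5%) and was led by Lhx9 and Prrx1. Cluster 10 held 117 and 197 cells (17.0% and 25.4%) and was led by the cell cycle genes Top2a and Prc1. Cluster 13 held 92 and 102 cells (13.4% and 13.1%) and was led by Dlk1, Igfbp5 and Rnd3, with the imprinted genes H19 and Meg3. Cluster 5 was thus the most populous in wild type and cluster 4 in Dup. Irx3 was concentrated in cluster 5, at 272 and 224 CPM, against 36.5 and 26.0 CPM in the rest of the class. Meis2 was spread more widely, at 790 and 620 CPM in cluster 5 and 271 and 178 CPM in the rest.

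**Figure D3:**
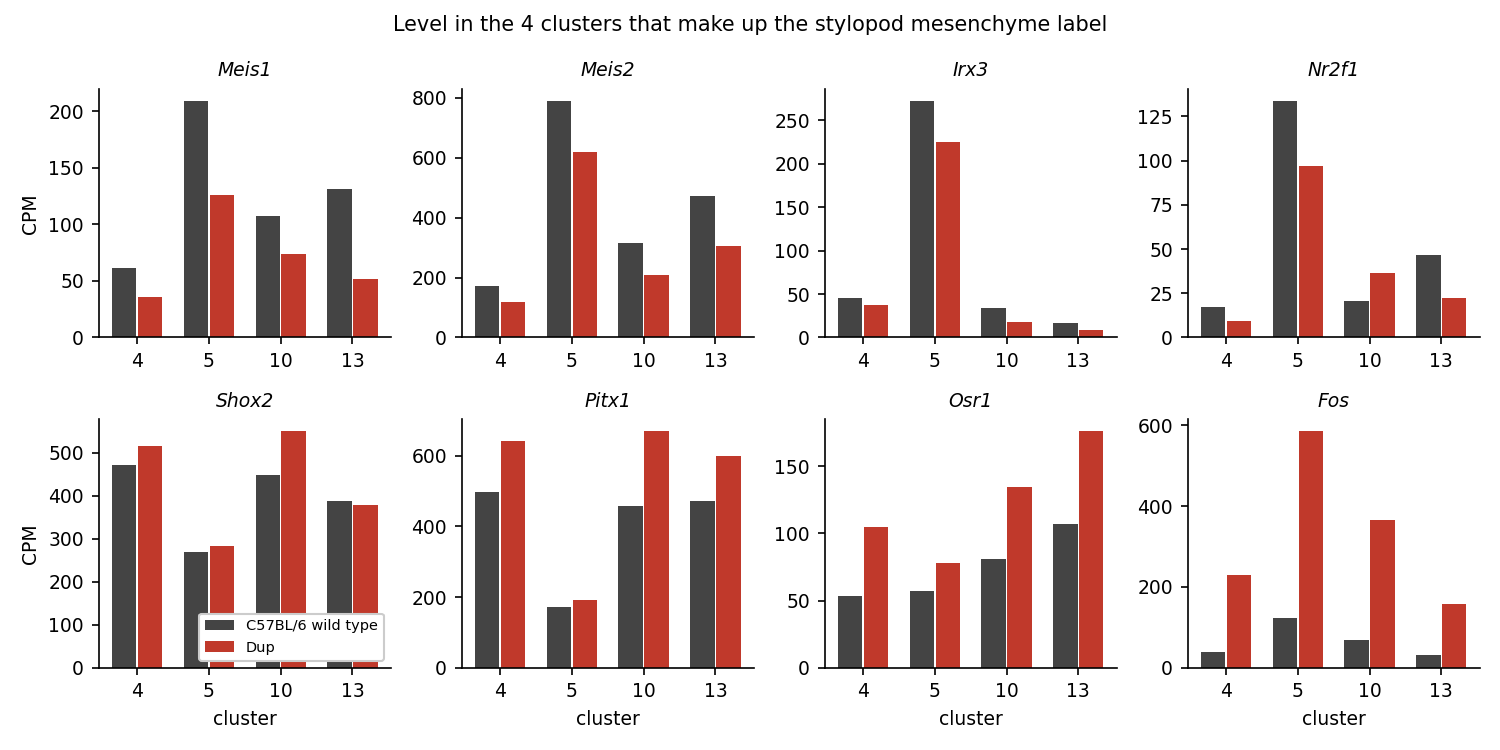
CPM of 8 genes in the 4 deposited clusters of stylopod mesenchyme, as bars for wild type (grey) and Dup (red), 1 library each. Irx3 and Nr2f1 peak in cluster 5, where Irx3 reaches 272 and 224 CPM, Pitx1 is lowest there, and Fos is higher in Dup in each cluster.

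Among single cells thinned to 4000 UMIs, the genes that varied most beyond counting noise, as variance over mean, were the nuclear RNA Malat1 (33.2 in wild type and 27.3 in Dup) and Ptn, a heparin-binding growth factor (10.4 and 8.27). Cell cycle genes such as Ube2c (4.93 and 6.43) came next. Ebf1 (4.25 and 5.58), Itm2a (3.37 and 3.36), Meis2 (3.20 and 3.31) and Igfbp5 (3.15 and 3.27) were the leading genes of tissue identity.

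Sparse factors were used to ask which genes accompany them in the same cells, as a description without a test. Stylopod cells with a Sox9 UMI (389 and 405) had 4.37-fold and 3.67-fold more Wwp2, a Sox9 target, than cells without, and 2.46-fold and 3.10-fold more Col2a1. Cells with an Osr1 UMI (129 and 221), a factor of irregular connective tissue, had 1.77-fold and 1.60-fold more Shox2 and 1.73-fold and 1.62-fold more Meis2. Cells with a Shox2 UMI (440 and 510) had 3.26-fold and 2.06-fold more Osr1 and 1.71-fold and 1.58-fold more of the hindlimb gene Pitx1. Cells with a Hand2 UMI (157 and 131) had 2.23-fold and 2.08-fold more Hoxd11, both posterior genes. Cells with a UMI of the dorsal gene Lmx1b (38 and 58) had 2.22-fold and 2.36-fold more Rspo3, a Wnt agonist. The genes were picked for a like direction in both libraries, so that agreement is no finding.

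Between the libraries the class took different shares. Stylopod cells were 30.6% (28.7% to 32.5%, Clopper-Pearson) of wild-type cells and 16.7% (15.6% to 17.8%) of Dup cells, a ratio of 0.546. Autopod cells were 14.5% and 31.6%, and zeugopod cells 28.4% and 29.0%. The class was assigned from genes that themselves differed between the libraries, so fewer stylopod cells and fewer cells given that name cannot be told apart.

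Within stylopod cells the duplicated genes were each near the 2-fold level of their copy number. Btrc, a ubiquitin ligase subunit, was at 25.0 CPM in wild type and 49.6 CPM in Dup, a ratio of 1.98 (1.62 to 2.43). Dpcd was at 60.3 and 126 CPM, a ratio of 2.09 (1.84 to 2.39). Poll, a DNA polymerase gene, was 2.10-fold and Fbxw4 2.19-fold higher; the annotated ends of Dpcd and Fbxw4 overlap, and the sources used here do not say whether strand was used in counting. These 4 measured members stood among 89 genes, 1.1% of 8098, that were 1.5-fold or more higher in Dup, while 95, or 1.17%, were that much lower. Lbx1, a gene of migrating muscle precursors, was at 1.75 and 1.58 CPM and too sparse for a ratio to be informative (0.315 to 2.46 at 95%). In sum, the 4 genes went from 106 to 220 CPM, a ratio of 2.08 (1.89 to 2.29), against 2.45 in zeugopod and 2.11 in autopod cells. The 17 flanking genes, without Fgf8, were at 608 and 609 CPM, a ratio of 1.00 (0.955 to 1.05). In mm9 the duplicated genes lie on chromosome 19: Lbx1 at chr19:45307178-45310301, Btrc at chr19:45438224-45607831, Poll at chr19:45626765-45635021, Dpcd at chr19:45635105-45652769 and Fbxw4 at chr19:45652744-45734802.

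Most of the proximal genes were lower in the Dup stylopod class, whereas Shox2 was higher, at a ratio of 1.18. Of 7 measured Meis, Pbx, Irx and Shox genes, 4 were 1.5-fold or more lower (Meis1, Meis2, Irx3 and Irx5) and 0 higher, and the median log2 ratio was -0.62 against -0.02 over all genes. Among all 8098 measured genes, 1.17% were that much lower and 1.1% higher. Meis1 had a ratio of 0.532 (0.468 to 0.603), Meis2 of 0.625 and Irx3 of 0.615. In the marker-gated cells of the G4 comparison below, Irx5 was at 1.07 (0.883 to 1.30). Pbx2 was at 1.06, Pbx3 at 0.636 and Shox2 at 1.25 there. The direction of Irx5 thus depended on how the cells were chosen. Pkdcc had a ratio of 0.607. Within clusters the ratio of Meis1 was 0.58, 0.60, 0.69 and 0.39 in clusters 4, 5, 10 and 13, and that of Meis2 was 0.69, 0.78, 0.65 and 0.65. Irx3, however, was at 0.83 and 0.82 in clusters 4 and 5. With the 4 clusters weighed equally, the log2 ratio of Irx3 was -0.36 rather than -0.70 and the median of the list was also -0.36. Meis1, Meis2, Irx3 and Pkdcc were also lower in the Dup zeugopod and autopod classes, where Meis2 had ratios of 0.383 and 0.262. Outside the mesenchyme, thinned muscle cells had a Meis1 UMI in 9.8% of wild type and 2.1% of Dup, and a Meis2 UMI in 10.6% and 2.1%. In dorso-ventral ectoderm, with 11 and 62 cells, the shares were 18.2% and 16.1% for Meis1 and 54.5% and 48.4% for Meis2.

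Some genes of the stylopod were higher in Dup, and differently from the other segments. Osr1 was at 66.2 CPM in wild type and 114 CPM in Dup stylopod cells, a ratio of 1.73 (1.52 to 1.97). In zeugopod cells it was at 54.1 and 39.2 CPM, and in autopod cells at 10.2 and 3.68 CPM, so that it was lower in Dup there. Pitx1, the hindlimb identity factor, was at 371 and 536 CPM in stylopod cells, a ratio of 1.44 (1.36 to 1.53), but 0.901 in zeugopod and 0.770 in autopod cells. Shox2 had a ratio of 1.18 in stylopod, 0.766 in zeugopod and 0.425 in autopod cells. The within-cluster ratios were 1.96, 1.38, 1.66 and 1.65 for Osr1 and 1.29, 1.11, 1.47 and 1.27 for Pitx1 in clusters 4, 5, 10 and 13. Lum, a small matrix proteoglycan gene, was at 15.6 and 46.8 CPM, a ratio of 3.00, and was higher in zeugopod (2.23) and autopod (1.68) cells too. Whether the ratios differ between segments beyond the variation of embryos was not tested.

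**Figure D4:**
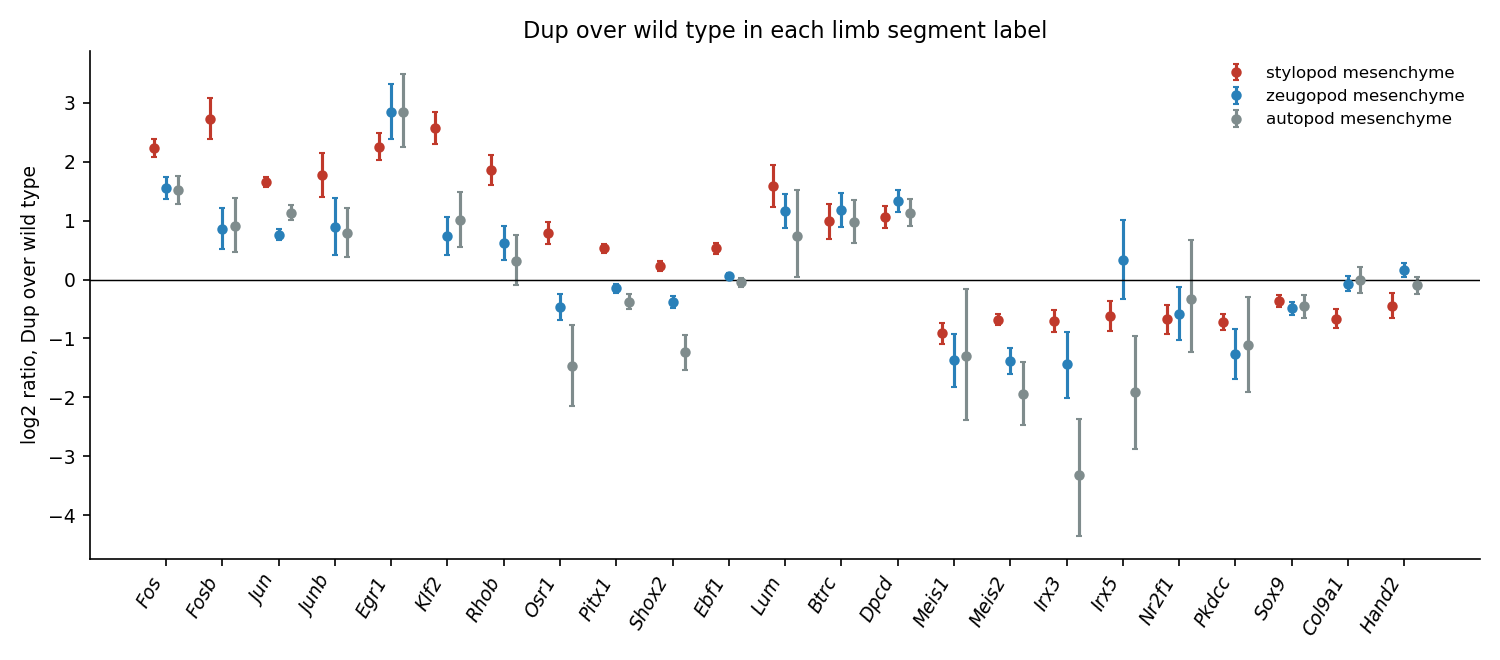
log2 ratio of CPM, Dup over C57BL/6 wild type, for named genes in stylopod (red), zeugopod (blue) and autopod (grey) mesenchyme, with 95% intervals. Osr1, Pitx1 and Shox2 are above 0 in stylopod cells only, at 0.79, 0.53 and 0.23, and Meis1, Meis2 and Irx3 are below 0 in each segment.

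Immediate early genes were the list with the highest median ratio. Their products are transcription factors and regulators that cells make within minutes of a stimulus, tissue dissociation included. Of 11 members 8 reached 10 CPM, 7 of these were 1.5-fold or more higher in Dup and 0 lower, and the median log2 ratio was 1.71. Among all 8098 measured genes, 1.1% were that much higher and 1.17% lower, and the median log2 ratio was -0.02. Fos was at 73.2 and 343 CPM, a ratio of 4.69 (4.23 to 5.21), Jun at 273 and 861 CPM, a ratio of 3.15, and Egr1 at 30.1 and 144 CPM, a ratio of 4.78. Fosb (12.9 and 85.4 CPM) had a ratio of 6.61 and Junb (13.2 and 45.3 CPM) of 3.42. Zfp36, at 9.41 and 13.4 CPM, did not reach 1.5-fold. Summed over the list, the ratio was 2.92 (2.82 to 3.03) in stylopod, 1.64 in zeugopod and 1.81 in autopod cells. Shares of cells moved with the sums: a Fos UMI was found in 17.4% of thinned wild-type and 44.4% of Dup stylopod cells (26.9% and 51.7% before thinning), against 17.8% and 34.02% of autopod cells. Both libraries had the same dissociation protocol, and its part in the result was not tested.

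Genes of related kinds that the size rule named were Klf2, Rhob, Ccn1 and Jund. Klf2 was at 21.1 and 125 CPM in stylopod cells, a ratio of 5.93, against 1.67 and 2.01 in zeugopod and autopod cells. Rhob, a stress-induced GTPase gene, had a ratio of 3.62 against 1.54 and 1.25. Ccn1 had a ratio of 2.87 against 1.56 and 3.03, and Jund of 1.52 against 1.09 and 1.27. Together with Fos, the genes Klf2, Rhob, Osr1 and Pitx1 had the ratios farthest above those of both other segments. Egr1 instead had larger ratios in the other segments, 7.15 in zeugopod and 7.15 in autopod cells.

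The promoters of Fos, Fosb and Junb are shown because these genes had ratios above 3 and held a known response element, and they were chosen after these values were seen. A cAMP response element, to which CREB factors bind, holds the letters TGACG. Of the 11 genes, 9 had a promoter in the RefSeq table of GRCm38.p6, and 5 of these, Fos, Fosb, Junb, Atf3 and Dusp1, held TGACG on either strand in the 250 bases before the start, as did 17.8% of all 32851 promoters. The 150 bases before each start follow, 5′ to 3′ in the direction of the gene, with TGACG in capitals where it lies on the strand shown.
Fos: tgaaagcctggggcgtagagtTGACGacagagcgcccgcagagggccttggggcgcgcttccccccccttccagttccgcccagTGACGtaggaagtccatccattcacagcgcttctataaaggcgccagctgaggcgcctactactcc
Fosb: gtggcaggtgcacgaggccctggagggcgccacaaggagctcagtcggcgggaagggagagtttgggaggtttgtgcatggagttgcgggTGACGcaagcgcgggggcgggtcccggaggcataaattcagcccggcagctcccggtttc
Junb: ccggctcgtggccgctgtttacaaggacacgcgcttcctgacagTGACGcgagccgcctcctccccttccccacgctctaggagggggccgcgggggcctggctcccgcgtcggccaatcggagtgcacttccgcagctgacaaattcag
The Fos stretch holds the motif at 129 and at 66 bases before the start, Fosb at 60 and Junb at 106. In GRCm38 they lie at chr12:85473740-85473889 on the forward strand, and at chr7:19310046-19310195 and chr8:84978749-84978898 on the reverse strand. A match of these letters is a description, and no binding was measured here.

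**Figure D5:**
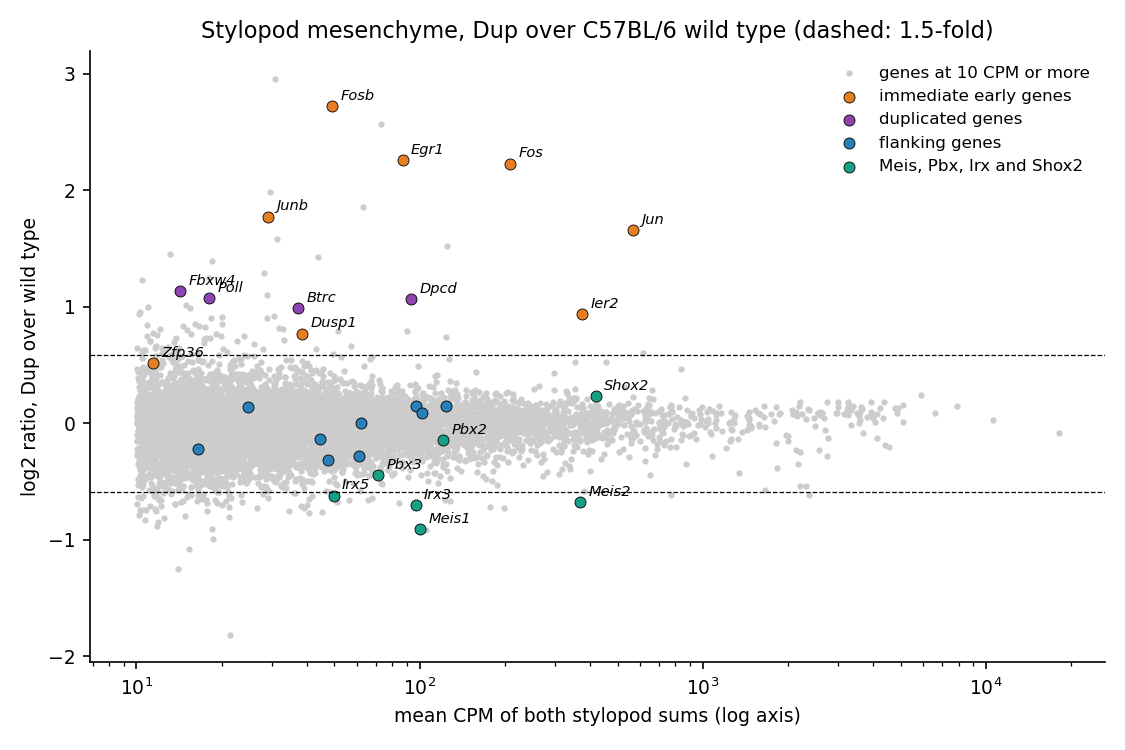
log2 ratio of Dup over wild type in stylopod mesenchyme against mean CPM (log axis), 1 point per gene at 10 or more CPM, with 4 lists in colour and dashed lines at 1.5-fold. The immediate early genes lie highest, the duplicated genes near 1, the flanking genes near 0, and Meis1 at -0.91.

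Of 12 measured cartilage genes, 2 were 1.5-fold or more lower in Dup (Col9a1 and Runx2), 0 were higher and 10 were within the limit. Their median log2 ratio was -0.21 against -0.02 over all genes, of which 1.17% were that much lower. Col9a1 was at 150 and 95.1 CPM, a ratio of 0.632 (0.565 to 0.706), against 0.951 in zeugopod and 0.999 in autopod cells. Sox9 had a ratio of 0.778 in stylopod cells, close to its 0.713 in zeugopod and 0.729 in autopod cells. Ptn was at 2742 and 1890 CPM, a ratio of 0.689, against 0.883 and 1.07. Rspo3, with a ratio of 0.771, and Foxp1, with 0.912, were lower in the stylopod while above 1 in both other segments. In the marker-gated cells of the G4 comparison below, Rspo3 was at 0.381 but Foxp1 at 1.22 (1.01 to 1.47). The direction of Foxp1 thus depended on how the cells were chosen. In the connective tissue list 3 of 15 measured genes were 1.5-fold higher (Osr1, Lum and Dcn) and Nr2f1 was lower, at a ratio of 0.626. Among all measured genes 1.1% were that much higher. Inside cluster 5 Nr2f1 was at 134 CPM in wild type and 97.0 CPM in Dup, and in the rest of the class at 23.9 and 21.1 CPM. Ptn was at 4843.5 and 3653.7 CPM inside cluster 5 and at 1590.5 and 1330.9 CPM in the rest. Cluster 5 held 39.0% of wild-type and 24.0% of Dup cells of the class, and its part in these ratios was not tested.

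Of all genes 1.1% were past 1.5-fold upwards and 1.17% downwards, so a list with 0 such members is near the background. Lists with 0 included the Hox genes of groups 9 to 13, the distal factors, the retinoic acid, FGF, BMP and insulin-like growth factor genes, the imprinted genes and both cell cycle lists. Among sparser genes, Pax9 had a ratio of 1.71, Six2 of 1.80 and Wnt11 of 1.66, on levels of 7.82 to 22.7 CPM. In the marker-gated cells of the G4 comparison below, Six2 was at 1.84 and Wnt11 at 1.66. Pax9 went the other way there, at 0.235 (0.0455 to 0.766), so its direction depended on how the cells were chosen. Hoxd13 had a ratio of 1.45 (1.09 to 1.92) on 95 and 111 UMIs. The lowest genes by the size rule included ones that were low in every segment. Rps29 was at 2861 and 1871 CPM, a ratio of 0.654, against 0.706 and 0.680 in the other segments, and Rpl38, Rps28, Gm10076 and Atp5k were alike in this. Casd1 had ratios of 0.631, 0.615 and 0.843.

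RNA of most other cell types was low in the class, with erythroid and trunk mesoderm genes as the exceptions. Cdh1, which defines epithelium, was at 0 UMIs in both libraries, which allows up to 3 UMIs in each, and Ptprc, which defines leukocytes, at 1 and 0 UMIs. The summed level of 8 muscle genes was 17.7 CPM in wild type and 9.09 CPM in Dup, and that of 6 endothelial genes 3.83 and 1.19 CPM. Of 9 ectoderm genes the sum was 47.7 and 48.2 CPM. Trunk mesoderm genes were at 154 and 180 CPM, mostly from Meox1 and Meox2. Erythroid genes were at 3591 and 2612 CPM, a ratio of 0.727, against 0.730 in zeugopod cells (3427 and 2502 CPM) and 0.544 in autopod cells (3766 and 2047 CPM). These cells should make none of the latter. The part of RNA from other cells in the ratios of the rarer genes was not tested.

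The G4 wild type gave a comparison between wild types of different strains. The G4 library was deposited apart from the C57BL/6 pair, so strain and library cannot be told apart. The stylopod name was read in the C57BL/6 pair only, so cells were gated in each library by UMIs of 2 or more of Meis1, Meis2 and Irx3 and none of Hoxa13 or Hoxd13. The gate kept 475 of 2025 mesenchyme cells of the C57BL/6 wild type, 306 of 4253 of Dup and 532 of 5191 of the G4 wild type, and 70.9% of the first and 70.9% of the second had the stylopod name. Mesenchyme cells of the C57BL/6 pair here included the chondrocyte progenitor and muscle connective tissue classes. Levels of the 3 gate genes are fixed by the gate and carry no information. Osr1 had a ratio to C57BL/6 wild type of 1.85 in Dup and of 0.848 in G4, and Fos of 4.49 in Dup and 0.392 in G4. Pitx1 was at 1.21 and 0.731. Btrc was at 1.81 in Dup and 0.870 in G4. Among the immediate early genes, Jun had a G4 ratio of 0.541 and Dusp1 of 0.528, but Fosb of 2.95 (2.25 to 3.93), while Egr1 (0.835) and Ier2 (0.954) were closer to 1. Over all genes at 10 or more CPM outside the gate, 2.2% were 1.5-fold or more higher and 9.93% lower in G4 (176 and 794 of 7998), against 2.08% and 3.1% in Dup (168 and 250 of 8068). The 2 wild-type libraries thus differed past this limit in more genes than Dup and its wild type did, and the part of strain in this was not tested.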

How the data were processed

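The authors dissociated the limb buds with trypsin and made 10x Genomics 3′ v2 libraries. Per the submitters' processing notes and the methods, they counted UMIs with Cell Ranger version 3 on a custom mm9 reference (the notes also name mm10), removed doublets by Scrublet score, applied SCT normalisation and canonical correlation integration, and named classes from Louvain clusters. The matrices they deposited hold unnormalised UMI counts of each gene in each cell. No doublet caller was run here, the matrix had 0 mitochondrial rows, and 17 columns of per-cell values were not used.

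The members and gene lists were chosen with earlier results of these data known. Cells with over 2000 detected genes were kept. UMIs were summed per library and class over 15668 genes, of which 14544 had a symbol, and scaled to CPM, with exact Poisson intervals for levels, exact conditional binomial intervals for ratios and Clopper-Pearson intervals for shares, all at 95%. Genes were measured where both sums averaged at least 10 CPM, and 1.5-fold was the limit for a count. With 1 library per group no test was run. Genes were named if they were in one of 33 lists (299 genes, 7 without a row; 3 further genes are not reported here), or averaged at least 50 CPM and were among the 5 to 15 most extreme genes of each comparison with a pseudocount of 50 CPM, or of variance and co-expression, leaving out haemoglobin, Xist and Y-linked genes. The ratio and thinning steps were tested on simulated data. Alternatives were limits of 1000 and 3000 detected genes, the mean over cells, thinning to 4000 UMIs (seed 1), size factors, the marker gate, other CPM filters and the share among the 3 segment classes. Leaving out cells over 20000 UMIs, the cluster settings and the G4 gate were chosen after seeing the data. Coordinates are from NCBIM37, the assembly of mm9; promoters are from RefSeq on GRCm38.p6. Python 3.11.15, numpy 2.4.6, scipy 1.17.1, pandas 2.3.3 and matplotlib 3.10.9 were used.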

Additional observations from a re-analysis of the deposited data

Results flagged for a closer look

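Osr1 stood out because its Dup over wild-type ratio was 1.73 in stylopod cells and below 1 in zeugopod (0.724) and autopod (0.361) cells, with 1 library per group. The difference between the segments was not tested.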

How the results depend on the processing

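Of 89 recomputed values of the 10 main results, 68 stayed within their limits, 21 moved and 0 changed direction. The numbers of genes past 1.5-fold, which are among these results, could not change direction. They were counted as stayed when within 1.5-fold of the main number. The share ratio of 0.546 was 0.393 in cells with over 3000 detected genes and 0.306 with the marker gate. The gate here had the marker rule of the G4 comparison but took cells of the 3 segment classes only, so its counts differ from those given there. Both settings used unthinned cells, which were shallower in Dup, and the gate genes were lower in Dup. The part of depth and marker level in these shares was not tested. The median log2 ratio of the proximal factors, Dup over wild type (-0.62), was -0.12 with the marker gate, which selects on 3 of them, -0.27, -0.28, -0.31 and -0.35 in clusters 4, 5, 10 and 13 alone and -0.36 with the clusters weighed equally. Hox genes of groups 12 and 13 against autopod cells were at -4.56 by the mean over cells and -4.62 without cells over 20000 UMIs in wild type, and at -2.44 in Dup cells with over 3000 detected genes. The number of genes 1.5-fold higher in Dup (89) was 399 with over 3000 detected genes, 235 with the gate, 13 at a mean of 50 or more CPM and 1680 with no filter and 0.5 counts added; the number lower (95) was 270, 288, 15 and 1653 in that order, 171 by the mean over cells and 270 with thinned cells. Fewer cells or fewer UMIs enter the sums under the limit of 3000, the gate and thinning. The limit and the gate also change which cells are compared. What part either had in these numbers was not tested. For single genes, a change of direction was counted only where the main ratio was 1.5-fold or more apart. A smaller ratio that crossed 1 was counted as stayed or moved. By that rule 1598 of 1847 values stayed, 248 moved and 1 changed direction: Dcn, Dup over wild type, at -0.026 with over 3000 detected genes. Size factors shifted every log2 ratio of stylopod over autopod cells in Dup by -0.20. No paired analysis was possible because each group holds 1 library, so no library could be left out either.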

Other observations

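Among the immediate early genes, Fos and Jun were also higher in Dup in stylopod chondrocyte progenitors and in muscle. In dorso-ventral ectoderm a Fos UMI was found in 1 of 11 thinned wild-type and 7 of 62 Dup cells, too few to compare. Fos was at 79.7 CPM in wild-type and 354 CPM in Dup stylopod chondrocyte progenitors, and at 76.0 and 230 CPM in muscle. Jun was at 530 and 901 CPM in stylopod chondrocyte progenitors and at 177 and 613 CPM in muscle. The stylopod markers of these progenitors were lower in Dup as well, with Meis1 at 65.9 and 31.0 CPM and Meis2 at 146 and 89.3 CPM.

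Among stylopod genes too low for the size rule, a few were chosen after their values were seen. The Krüppel-like factor gene Klf6 was at 12.0 and 47.2 CPM, a ratio of 3.95, against 1.28 in zeugopod cells. Btg2, an antiproliferative early gene, was at 23.8 and 63.8 CPM, a ratio of 2.69. Gria2, a glutamate receptor gene, was at 33.3 and 9.49 CPM, a ratio of 0.285, and was lower in zeugopod (0.299) and autopod (0.0310) cells too.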
